A study of Mus musculus with 4 samples.

Results

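Cells of the fat stroma that can become adipocytes are recognised by proteins on their surface, and the 10 genes described here encode such markers. They were taken by symbol: Pdgfra, Pdgfrb, Cd34, Ly6a and Thy1 (markers of progenitors in general), Cd9 (linked to fibrogenic progenitors), Dpp4 and Pi16 (interstitial progenitors), Icam1 (committed preadipocytes) and F3 (regulatory stromal cells). Each symbol matched 1 row of the deposited table, so that 10 of 55536 genes are described. RNA came from the inguinal white fat of male wild-type mice at postnatal day 21, and within it from the stromal vascular fraction, which holds the cells left when adipocytes are removed. The 4 libraries were ObF1 mice given 1,3BD, ObF1 mice given water, LnF1 mice given 1,3BD and LnF1 mice given water, where ObF1 and LnF1 are the labels' names for offspring in a series about parental obesity. Neither 1,3BD nor its dose and duration is spelled out in the labels. Every library pooled 3 mice, and no combination of parents and drink had a second library, so no level below has a replicate error.

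In mouse fat, interstitial progenitors that carry DPP4 and PI16 are held to give rise to preadipocytes that carry ICAM1, while stromal cells that carry F3 (tissue factor, CD142) can restrain adipocyte formation. PDGFRA is shared by most adipose progenitors, PDGFRB is also found on pericytes, and CD34, LY6A (SCA-1) and THY1 (CD90) are used together to sort progenitors from a digest. CD9, a tetraspanin that organises other membrane proteins, is high on fibrogenic PDGFRA+ cells in mouse fat.

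Levels are in scaled CPM, read counts adjusted for library size, with 25432747 recovered reads in ObF1 1,3BD, 26000090 in ObF1 water, 24586827 in LnF1 1,3BD and 24804006 in LnF1 water. Among markers of other cell types, those of T and B cells, red blood cells and epithelium summed to at most 0.645 CPM in any library. Adipoq of adipocytes had 0 reads throughout, a count that leaves room for up to 0.130 CPM, although Plin1 reached 5.09 CPM. Macrophage, endothelial, Schwann cell, muscle, mesothelial and contractile markers were detected, and their sums are given with the drink comparison. The 4 general leukocyte markers summed to at most 2.50 CPM in any library, and Ptprc among them had 1 to 4 reads. Whether the libraries hold the cell mix of whole fat stroma was not tested. The labels used here record no sorting or culture step. Mitochondrial genes took 5.80% of reads in ObF1 1,3BD against 1.30% in ObF1 water, and 2.78% in LnF1 1,3BD against 1.13% in LnF1 water. The part of these differences in the results below was not tested.

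Expression of the 10 markers was very uneven, and both interstitial markers were at the edge of detection. Per kilobase of merged exons, Ly6a, F3 and Thy1 filled the first 3 places in all 4 libraries, while Dpp4 and Pi16 filled the last 2 places in each. Ly6a had 168 CPM per kb in ObF1 1,3BD and 182 in LnF1 1,3BD, where it ranked first of the 10. Its share of the 10 genes' summed CPM per kb was 38.0% in ObF1 1,3BD against 18.2% in ObF1 water, and 50% in LnF1 1,3BD against 26.5% in LnF1 water. In the water libraries the first place went to Thy1 in ObF1, at 250.2 CPM per kb with F3 next at 246, and to F3 in LnF1, at 329 CPM per kb. Neighbours in this order had overlapping 95% counting intervals in 5 cases: Pi16 and Dpp4 in both ObF1 libraries, Thy1 and F3 in ObF1 water, Cd9 and Pdgfra in ObF1 water, and Pdgfrb and Pdgfra in LnF1 1,3BD. Summed over the 10 genes, the level was 1339 CPM in ObF1 1,3BD against 2575 CPM in ObF1 water, and 1007 CPM in LnF1 1,3BD against 2623 CPM in LnF1 water. In bulk RNA, fewer cells that carry a marker and less RNA per cell cannot be told apart.

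**Figure D1:**
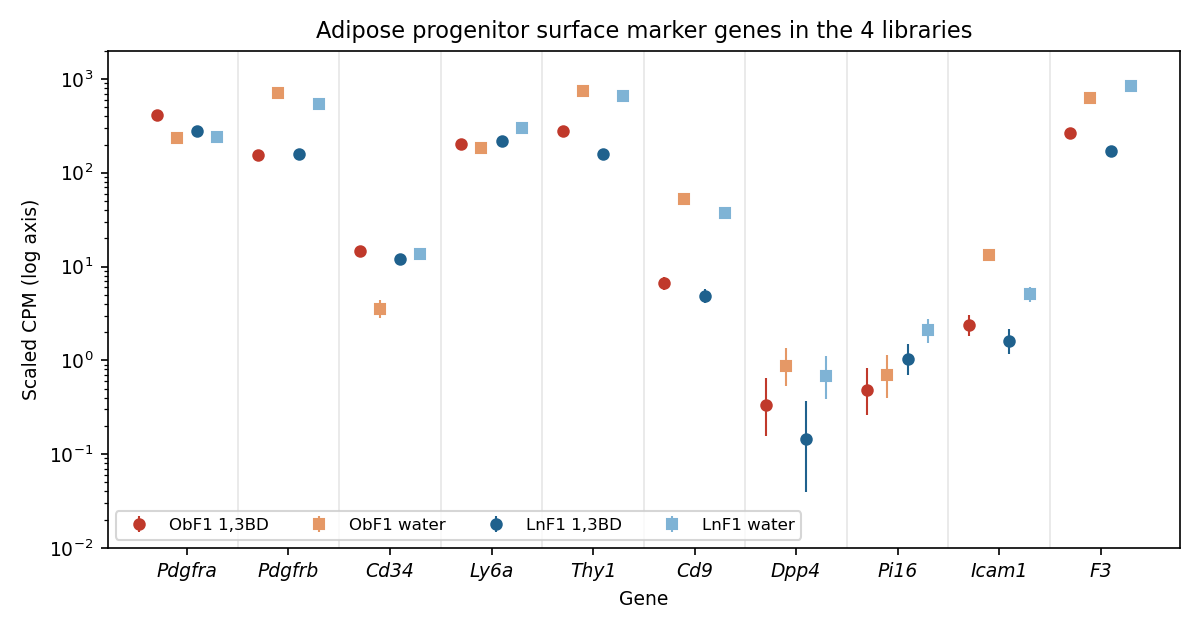
Scaled CPM (log axis) of the 10 surface marker genes in the 4 libraries, with 1 point per library and bars for the 95% counting interval (exact Poisson), which is hidden by the point where reads are many. Pdgfrb, Thy1, Cd9, Dpp4, Icam1 and F3 lie lower in both 1,3BD libraries than in both water libraries. The share of all tested genes that separate in this way was not counted, and 44.0% passed the drink test in either direction. Dpp4 and Pi16 lie at or below 2.08 CPM throughout.

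Promoter windows of 300 bases were shown for 3 genes that passed the drink test below (F3, Icam1 and Cd9) and for Pdgfra, which did not, because the letters around a start site give the sequence context of genes that moved together. The windows run from 250 bases before to 50 bases after the RefSeq start on GRCm38.p6, at chr3:121723287-121723586 on the plus strand, chr9:21015690-21015989 on the plus strand, chr6:125494711-125495010 on the minus strand and chr5:75152001-75152300 on the plus strand. Capitals mark matches on either strand to 8 patterns. The TATA box was searched as TATAAA and the GC box as GGGCGG. For AP-1 the letters were TGANTCA, and for TEAD proteins they were GGAATG. For STAT proteins they were TTCNNNGAA. The CCAAT box was searched as CCAAT. NF-kB matches had to begin with GGG and end with CC, and CArG box matches to begin with CC and end with GG. Sites that depart from these letters are not marked, so a window without a match may still hold such a site.
F3: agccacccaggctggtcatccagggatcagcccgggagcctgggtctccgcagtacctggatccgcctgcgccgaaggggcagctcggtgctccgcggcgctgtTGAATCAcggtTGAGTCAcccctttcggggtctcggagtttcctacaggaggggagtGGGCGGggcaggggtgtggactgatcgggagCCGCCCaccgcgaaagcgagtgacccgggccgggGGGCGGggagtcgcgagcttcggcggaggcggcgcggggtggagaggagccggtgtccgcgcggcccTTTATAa
Icam1: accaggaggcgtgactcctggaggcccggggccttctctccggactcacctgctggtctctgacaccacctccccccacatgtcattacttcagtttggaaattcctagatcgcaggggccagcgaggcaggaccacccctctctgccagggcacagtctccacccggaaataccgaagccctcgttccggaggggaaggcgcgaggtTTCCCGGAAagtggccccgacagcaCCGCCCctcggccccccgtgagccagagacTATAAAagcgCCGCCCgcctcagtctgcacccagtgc
Cd9: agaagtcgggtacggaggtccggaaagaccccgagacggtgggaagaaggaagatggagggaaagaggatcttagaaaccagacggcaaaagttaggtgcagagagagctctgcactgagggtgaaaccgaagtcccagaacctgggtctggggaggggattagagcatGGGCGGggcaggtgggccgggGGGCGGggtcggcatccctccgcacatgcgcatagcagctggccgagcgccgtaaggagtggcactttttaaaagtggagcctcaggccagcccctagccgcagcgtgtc
Pdgfra: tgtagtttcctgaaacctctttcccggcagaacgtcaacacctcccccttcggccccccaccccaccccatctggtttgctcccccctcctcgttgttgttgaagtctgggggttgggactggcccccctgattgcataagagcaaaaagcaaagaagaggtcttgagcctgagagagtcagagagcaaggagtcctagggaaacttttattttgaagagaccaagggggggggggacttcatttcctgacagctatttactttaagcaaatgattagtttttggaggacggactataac
The F3 window held 2 AP-1 matches, TGAATCA at bases 105 to 111 and TGAGTCA at bases 116 to 122, counted from its 5′ end, a pattern found in 7.81% of 32851 promoter windows of the same length. It also held 3 GC box matches, a pattern found in 35.7% of windows, and 1 TATA box match on the minus strand at bases 294 to 299. Icam1 had a STAT match at bases 209 to 217 (8.30% of windows), a TATA box match at bases 264 to 269 (13.6% of windows) and 2 GC box matches. The TATA box matches of F3 and Icam1 lie in the last 50 bases of their windows, after the RefSeq start and not before it. Cd9 had 2 GC box matches, and Pdgfra had no match to any of the 8 patterns. GC content was 70.3% for F3, 64.7% for Icam1, 61.3% for Cd9 and 51.0% for Pdgfra, against a median of 52.7% over all windows. RefSeq windows were at hand for 7 of the 10 genes, and none of the patterns overlapped another within those printed.

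Pdgfrb, Thy1, Cd9, Icam1 and F3 fell with 1,3BD, by between 3.32-fold and 7.64-fold in the fit over both parental groups, and no marker rose by the test. Within a parental group, the ratios of water to 1,3BD for these 5 genes ran from 2.33 (F3 in ObF1) to 7.90 (Cd9 in ObF1). Of the 9 markers that entered the test, 5 were lower and 0 higher, whereas 24.8% of all 12838 tested genes were lower, 19.2% higher and 44.0% either. At an unadjusted p under 0.05, limma listed 6 of the 9, the sixth being Pdgfra, which was higher, and 52.1% of all tested genes. The median log2 difference was -1.73 over these 9 genes and -0.06 over all tested genes. Dpp4 was left out by the filter of at least 1 CPM in 2 libraries. The share of all tested genes whose levels did not overlap between drinks was not counted. A lack of overlap named for single markers is therefore no support beyond the test. The test was limma on log2 values, additive in drink and parents, so its error reflects how far a drink difference varies between ObF1 and LnF1, moderated across genes.

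Among the pan-progenitor markers, the PDGF receptor genes went apart. Pdgfrb (chromosome 18, 61045150 to 61085061, plus strand, mm10) had 154 CPM in ObF1 1,3BD against 716 CPM in ObF1 water, and 157 CPM in LnF1 1,3BD against 538 CPM in LnF1 water. Both 1,3BD libraries lay below both water libraries, and the fitted difference was -2.0 on the log2 scale (standard error 0.21, limma adjusted p = 3.31e-05). Pdgfra (chromosome 5, 75152292 to 75198215, plus strand), the gene of the other receptor chain, had 412 CPM in ObF1 1,3BD against 236 CPM in ObF1 water, and 281 CPM in LnF1 1,3BD against 243 CPM in LnF1 water. Here both 1,3BD libraries lay above both water libraries, but the log2 difference of 0.51 (standard error 0.21) did not pass (limma adjusted p = 0.0742). Per kilobase, the ratio of Pdgfra to Pdgfrb was 1.46 in ObF1 1,3BD against 0.180 in ObF1 water, and 0.978 in LnF1 1,3BD against 0.247 in LnF1 water. Pdgfra thus stood above Pdgfrb in ObF1 1,3BD, their counting intervals overlapped in LnF1 1,3BD, and Pdgfrb was several times above Pdgfra in both water libraries.

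**Figure D2:**
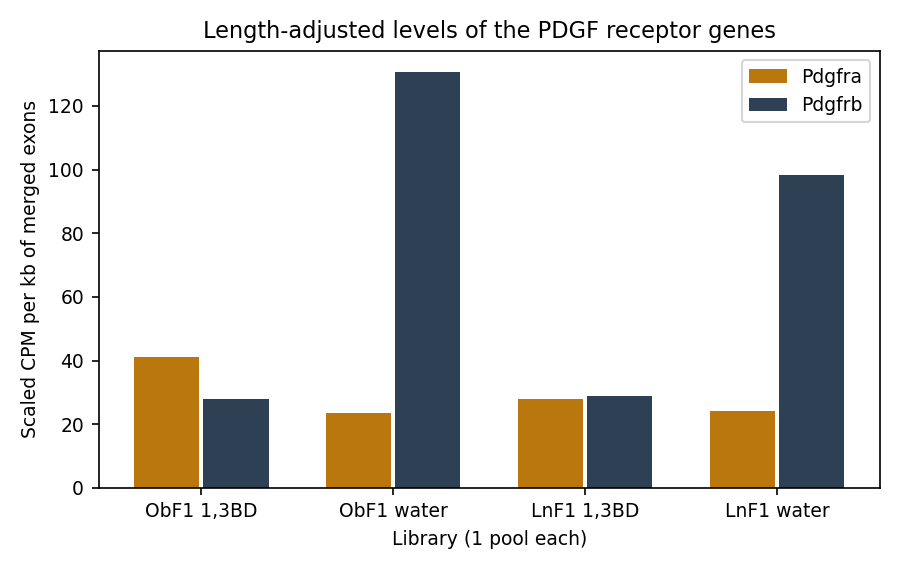
Scaled CPM per kb of merged exons of Pdgfra and Pdgfrb in the 4 libraries, with 1 bar per gene and library and no replicates. Pdgfrb stands at 28.0 and 28.7 in the ObF1 and LnF1 1,3BD libraries against 131 and 98.3 in the matching water libraries, while Pdgfra stays between 23.5 and 41.1.

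Thy1 (chromosome 9, 44043384 to 44048579, plus strand), which encodes a glycolipid-anchored immunoglobulin-type protein, had 281 CPM in ObF1 1,3BD against 749 CPM in ObF1 water, and 157 CPM in LnF1 1,3BD against 651 CPM in LnF1 water. The drinks did not overlap, and the log2 difference was -1.73 (standard error 0.22, limma adjusted p = 0.000142). Ly6a (chromosome 15, 74994877 to 74998031, minus strand), anchored in the same way, had 202 CPM in ObF1 1,3BD against 182 CPM in ObF1 water, and 219 CPM in LnF1 1,3BD against 300.5 CPM in LnF1 water. Its 4 levels overlapped between drinks and went opposite ways in the parental groups, with a log2 difference of -0.15 (standard error 0.21, limma adjusted p = 0.588) that turned positive with library totals as the scaling. Ly6a belongs to a cluster of similar genes, so that a share of its reads may be split with relatives.

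Cd34 (chromosome 1, 194938819 to 194961279, plus strand), a sialomucin gene of progenitors and of endothelium, was low in 1 library. It had 14.6 CPM in ObF1 1,3BD against 3.56 CPM in ObF1 water, and 11.9 CPM in LnF1 1,3BD against 13.5 CPM in LnF1 water. ObF1 water, with 82 reads, stood apart from the other libraries at 319 to 389 reads. The log2 difference for drink of 0.91 (standard error 0.51) did not pass (limma adjusted p = 0.197), and without ObF1 water it was -0.039.

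Cd9 (chromosome 6, 125460266 to 125494791, minus strand) had the lowest drink difference of the 9 tested markers and the closest repeat of it. The levels were 6.60 CPM in ObF1 1,3BD against 52.1 CPM in ObF1 water, and 4.88 CPM in LnF1 1,3BD against 36.9 CPM in LnF1 water. The ratio of 1,3BD to water was 0.127 in ObF1 (95% counting interval 0.107 to 0.148) and 0.132 in LnF1 (0.110 to 0.159), intervals that cover counting error only. Its log2 difference was -2.93 (standard error 0.24, limma adjusted p = 6.00e-06). In the order of drink differences over 12838 genes, from the lowest, Cd9 was at place 340.

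Dpp4 and Pi16, the interstitial markers, were too low to show a drink difference firmly. Dpp4 (chromosome 2, 62330073 to 62412231, minus strand), a membrane peptidase gene, had 9 reads (0.337 CPM) in ObF1 1,3BD against 20 reads (0.869 CPM) in ObF1 water, and 4 reads (0.143 CPM) in LnF1 1,3BD against 16 reads (0.679 CPM) in LnF1 water. Its counting intervals for the ratio of 1,3BD to water ran from 0.156 to 0.892 in ObF1 and from 0.0514 to 0.655 in LnF1. Pi16 (chromosome 17, 29317680 to 29330593, plus strand), the gene of a peptidase inhibitor, had 0.487 CPM in ObF1 1,3BD against 0.695 CPM in ObF1 water, and 1.04 CPM in LnF1 1,3BD against 2.08 CPM in LnF1 water. The order of the Pi16 levels followed the parents rather than the drink, and the drink difference of -0.70 on the log2 scale (standard error 0.48) did not pass (limma adjusted p = 0.257).

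Icam1 (chromosome 9, 21015985 to 21028817, plus strand), an adhesion receptor gene for leukocyte integrins, had 2.36 CPM in ObF1 1,3BD against 13.1 CPM in ObF1 water, and 1.61 CPM in LnF1 1,3BD against 5.09 CPM in LnF1 water. Both 1,3BD libraries lay below both water libraries, and the log2 difference was -2.02 (standard error 0.36, limma adjusted p = 0.00107). The call ended without LnF1 1,3BD (-1.76, limma adjusted p = 0.0696) and without ObF1 water (-1.35, limma adjusted p = 0.102), in fits that also drop the parents.

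F3 (chromosome 3, 121723537 to 121735048, plus strand), the tissue factor gene whose promoter is printed above, was among the most abundant of the 10. It had 266 CPM in ObF1 1,3BD against 621 CPM in ObF1 water, and 172 CPM in LnF1 1,3BD against 832 CPM in LnF1 water. The drinks did not overlap, and the log2 difference was -1.75 (standard error 0.26, limma adjusted p = 0.000551). The ratio of 1,3BD to water was 0.428 in ObF1 and 0.207 in LnF1, so that the size of the difference was not alike in the parental groups. That disparity could not be tested with 1 library per combination.

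**Figure D3:**
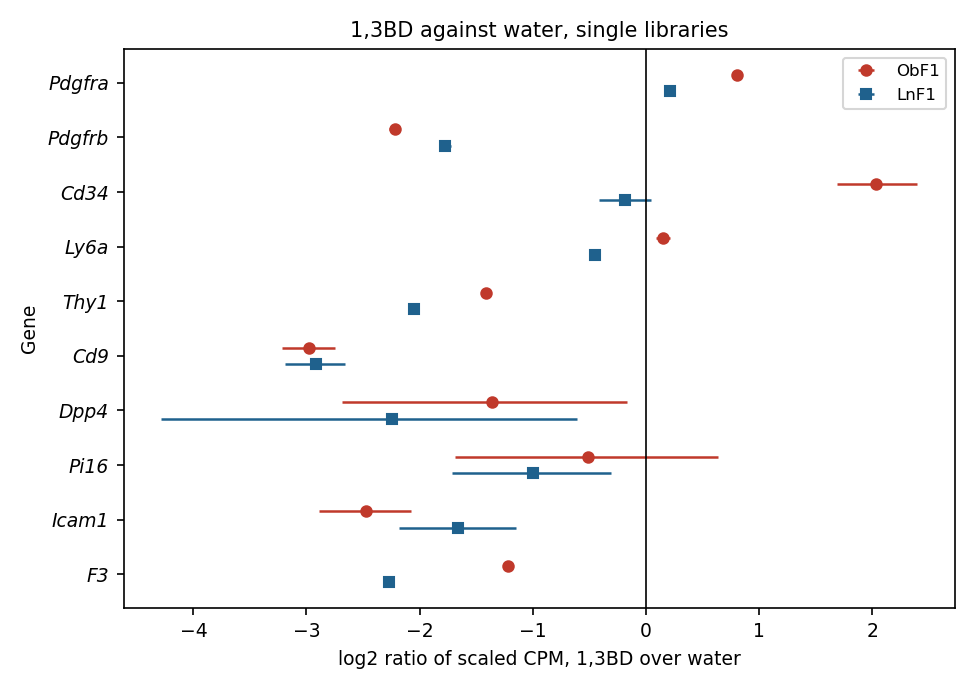
The log2 ratio of scaled CPM in 1,3BD over water for each marker in ObF1 (circles) and LnF1 (squares), with bars for the 95% counting interval (exact conditional binomial). Cd9 lies near -3 in both parental groups, Pdgfra lies above 0 in both, and Cd34 and Ly6a lie on opposite sides of 0.

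By size alone, Pdgfrb, Thy1, Cd9, Dpp4, Icam1 and F3 were lower by at least 1 on the log2(CPM + 0.0796) scale in ObF1, and Cd34 was higher by that size. The same 6 genes were lower by that size in LnF1 and 0 were higher. Over all tested genes the shares past that size were 19.7% lower and 13.1% higher in ObF1, and 16.4% lower and 10.7% higher in LnF1.

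Some markers of other cell types also fell with the drink: 4 of 7 tested mural and myofibroblast markers, 4 of 4 endothelial, 2 of 3 macrophage, 2 of 3 Schwann cell, 1 of 2 muscle, 1 of 1 leukocyte and 1 of 1 mesothelial, against 24.8% of all tested genes, and the adipocyte gene Plin1 rose. The 7 mural and myofibroblast markers summed to 226 CPM in ObF1 1,3BD against 8967 CPM in ObF1 water, and to 196 CPM in LnF1 1,3BD against 8386 CPM in LnF1 water, of which Acta2 alone made 8097 and 7692 CPM in the ObF1 and LnF1 water libraries. Of the pericyte genes in that list, Rgs5, Kcnj8 and Abcc9 were at most 4.63 CPM, and Notch3 had 24.5 CPM in ObF1 1,3BD against 51.7 CPM in ObF1 water, and 61.5 CPM in LnF1 1,3BD against 70.3 CPM in LnF1 water. The 6 endothelial markers summed to 3.26 CPM in ObF1 1,3BD against 21.7 CPM in ObF1 water, and to 3.30 CPM in LnF1 1,3BD against 10.9 CPM in LnF1 water. Of the 5 mesothelial markers, Krt19 made nearly the whole sum (9.45 of 9.45 CPM in ObF1 1,3BD against 88.2 of 88.8 CPM in ObF1 water, and 2.94 of 3.01 CPM in LnF1 1,3BD against 55.1 of 55.1 CPM in LnF1 water), while Lrrn4 had 0 reads throughout. The 4 general leukocyte markers summed to 0.937 CPM in ObF1 1,3BD against 1.69 CPM in ObF1 water, and to 0.215 CPM in LnF1 1,3BD against 2.50 CPM in LnF1 water, and the 6 macrophage markers to between 4.45 and 26.3 CPM. The 5 adipocyte markers, nearly all from Plin1, summed to 1.84 CPM in ObF1 1,3BD against 0.0869 CPM in ObF1 water, and to 5.09 CPM in LnF1 1,3BD against 0.0849 CPM in LnF1 water. The 4 muscle markers summed to 3.41 CPM in ObF1 1,3BD against 63.0 CPM in ObF1 water, and to 2.55 CPM in LnF1 1,3BD against 87.6 CPM in LnF1 water. Of these sums the actin gene Acta1 alone made 61.8 and 86.5 CPM in the ObF1 and LnF1 water libraries. Myh4 had 0 reads throughout, and Tnnt3 did not pass (-0.05, limma adjusted p = 0.943). The 4 Schwann cell markers summed to 2.25 CPM in ObF1 1,3BD against 16.5 CPM in ObF1 water, and to 2.44 CPM in LnF1 1,3BD against 6.75 CPM in LnF1 water. The part of these cell types in the marker differences was not tested.

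Other genes tied to the same cell states were counted next, from lists chosen with earlier results of these data known, and each count stands against 24.8% lower and 19.2% higher over all tested genes. Of 9 tested interstitial progenitor genes beyond Dpp4 and Pi16, 4 fell (Limch1, Anxa3, Il33 and Pcolce2), 2 rose (Cd55 and Ackr3) and 3 did not pass. Cd55, which encodes a complement regulator, had a log2 difference of 1.61, and Anxa3, an annexin gene, had -1.90. Of 13 tested genes of committed preadipocytes, 3 rose, 5 fell and 5 did not pass. The 3 that rose were the fatty acid binding protein gene Fabp4 (4.68), the lipoprotein lipase gene Lpl (2.71) and Pparg (1.42), the nuclear receptor that drives adipocyte formation. Those that fell included Apod (-3.71), the chemokine gene Cxcl14 (-3.57), Ggt5 (-2.68) and the amine oxidase gene Aoc3 (-2.24), along with Vcam1 (-0.80). Icam1 therefore differed in sign from Fabp4, Lpl and Pparg, and shared it with Vcam1, Ggt5 and Aoc3. Of 11 tested genes listed for regulatory stromal cells, 5 fell, among them Clec11a (-3.85), Meox2 (-3.41) and the matrix Gla protein gene Mgp (-2.55), and 3 rose, namely Gdf10 (2.22), Fmo2 (1.86) and Tbx15 (0.97).

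Surface proteins outside the 10 were mostly lower. Of 13 other tested stromal surface markers, 11 fell, 2 rose and 0 failed to pass, with a list median of -1.64. Mcam (-4.49) and the NG2 proteoglycan gene Cspg4 (-4.37), both also pericyte genes, fell furthest. Next were Entpd2 (-2.47) and the fibroblast activation protein gene Fap (-2.27). Cspg4 had 1 read in ObF1 1,3BD and 7 reads in LnF1 1,3BD (standard error 0.77), and Entpd2 had 7 reads in each. Their sizes therefore depend on the constant added before the log. Cd24a (1.90) and Alcam (1.5) rose. Cd24a, an early progenitor marker in mouse fat, had 112 CPM in ObF1 1,3BD against 16.6 CPM in ObF1 water, and 78.9 CPM in LnF1 1,3BD against 38.2 CPM in LnF1 water.

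Partners and relatives of single markers gave the following counts. Of the ligand genes for the PDGF receptors, Pdgfd, a ligand of PDGFRB (-2.61), and Pdgfa (-0.86) fell, and Pdgfc did not pass (-0.33, limma adjusted p = 0.290). Pdgfb had 0 reads in both 1,3BD libraries and 4.56 and 0.764 CPM in the ObF1 and LnF1 water libraries, and was not tested. Of 9 tested tetraspanins and CD9 partners, 8 fell, led by Cd53, a leukocyte tetraspanin gene (-2.47), Tspan4 (-1.88), Cd82 (-1.41) and Ptgfrn (-1.21). Cd9 at -2.93 was lower than each of them. Besides F3, the tissue factor pathway held F2r, a thrombin receptor gene (-1.07), and the inhibitor gene Tfpi2 (-2.46), which fell, and the main inhibitor gene Tfpi (0.60), which rose, while the coagulation factor gene F10 had 0 reads in all libraries. All 4 tested relatives of Ly6a fell: Plaur, the urokinase receptor gene (-4.67), Cd59a (-2.54), Ly6c1 (-1.63) and Ly6e (-0.95). Ly6a at -0.15 did not pass. Of 5 tested adhesion genes beside Icam1, 3 fell (F11r, Jam2 and Vcam1). Of 5 peptidases related to Dpp4, 3 fell (Fap, Dpp9 and Prep).

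Of 10 tested genes of adipose fibroblast identity other than Pdgfra, 5 fell (Mfap5, Col1a1, Col1a2, Dpt and Gsn), 0 rose and 5 did not pass, with a list median of -1.08. The mesenchymal transcription factor gene Prrx1 had 646 CPM in ObF1 1,3BD against 622 CPM in ObF1 water, and 530 CPM in LnF1 1,3BD against 569 CPM in LnF1 water, a log2 difference of -0.02 (limma adjusted p = 0.932).

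**Figure D4:**
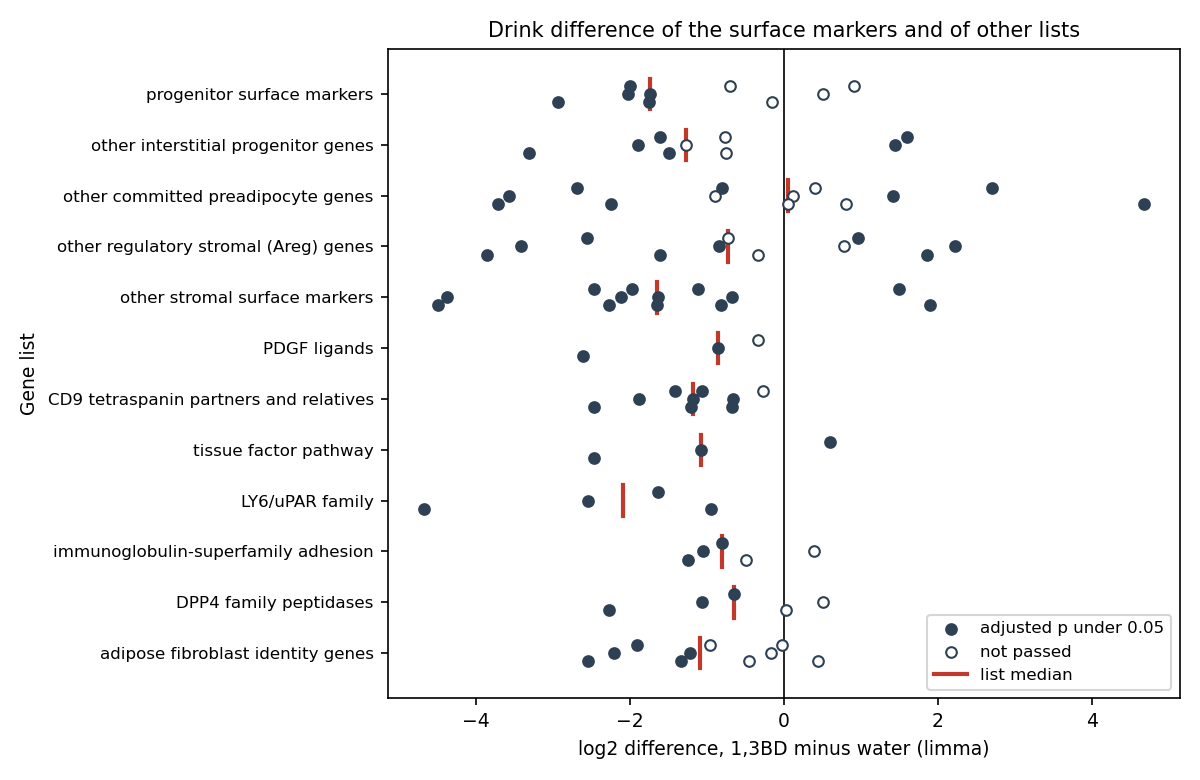
The log2 difference of 1,3BD minus water from limma for the 9 tested surface markers (top) and for tested members of the other lists without those markers, with filled points past an adjusted p of 0.05, open points not past it and red lines at list medians. The surface markers have a median of -1.73 and the other stromal surface markers one of -1.64, against 0.06 for the committed preadipocyte genes.

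Between ObF1 and LnF1 no marker passed: of 9 tested, 0 were higher and 0 lower by limma, edgeR or DESeq2, where 0.195% of all genes were higher, 0.101% lower and 0.296% either by limma. At an unadjusted p under 0.05, limma listed 3 of the 9 (Thy1, Pi16 and Icam1), edgeR 2 and DESeq2 2, where 10.8% of all tested genes were listed by limma, 10.7% by edgeR and 7.56% by DESeq2. A p that misses the threshold does not show that the markers were alike.

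The 3 genes named last had the same direction in both drinks, as did Ly6a, Cd9 and Dpp4. A low p in this fit favours genes that repeat, so the repeat is no separate support. Over all tested genes, 41.2% went opposite ways. Icam1 had 2.36 CPM in ObF1 against 1.61 CPM in LnF1 with 1,3BD, and 13.1 CPM in ObF1 against 5.09 CPM in LnF1 with water, which gave 0.94 on the log2 scale (standard error 0.36, limma adjusted p = 0.367). Thy1 was nominally higher in ObF1 in both drinks too, at 0.52 on the log2 scale (standard error 0.22, limma adjusted p = 0.419). Pi16 had 13 reads in ObF1 against 29 reads in LnF1 with 1,3BD, and 16 reads in ObF1 against 49 reads in LnF1 with water, which gave -1.23 on the log2 scale (standard error 0.48, limma adjusted p = 0.379). Its counting intervals for the ratio of ObF1 to LnF1 stayed below 1, at 0.224 to 0.931 with 1,3BD and 0.177 to 0.598 with water. Those of Icam1 were 0.983 to 2.20 with 1,3BD, which includes 1, and 2.08 to 3.21 with water.

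Cd9 was 1.35 times LnF1 in ObF1 with 1,3BD and 1.41 times with water, values close to each other (log2 difference 0.46, standard error 0.24, limma adjusted p = 0.501). Ly6a was 0.922 times LnF1 in ObF1 with 1,3BD and 0.606 times with water (log2 difference -0.42, standard error 0.21, limma adjusted p = 0.492). Dpp4 gave 2.35 and 1.28 in the same order, with counting intervals that include 1 in both drinks.

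For Pdgfra, Pdgfrb, Cd34 and F3 the parental difference went opposite ways in the 2 drinks, where 41.2% of all tested genes did so. Pdgfra was 1.46 times LnF1 in ObF1 with 1,3BD and 0.970 times with water, and Pdgfrb 0.977 times with 1,3BD and 1.33 times with water. The counting intervals of Pdgfra with water (0.934 to 1.01) and of Pdgfrb with 1,3BD (0.936 to 1.02) include 1. F3 was 1.55 times LnF1 in ObF1 with 1,3BD and 0.747 times with water, and Cd34 1.23 times and 0.263 times. Past a size of 1 on the log2(CPM + 0.0796) scale with water were Icam1, higher in ObF1, and Cd34 and Pi16, lower in ObF1, against 3.04% of genes higher and 2.80% lower. With 1,3BD 0 markers reached that size, against 3.07% of genes higher and 4.27% lower, although without the added constant the ratios of the low genes Dpp4 and Pi16 were 2.35 and 0.469.

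**Figure D5:**
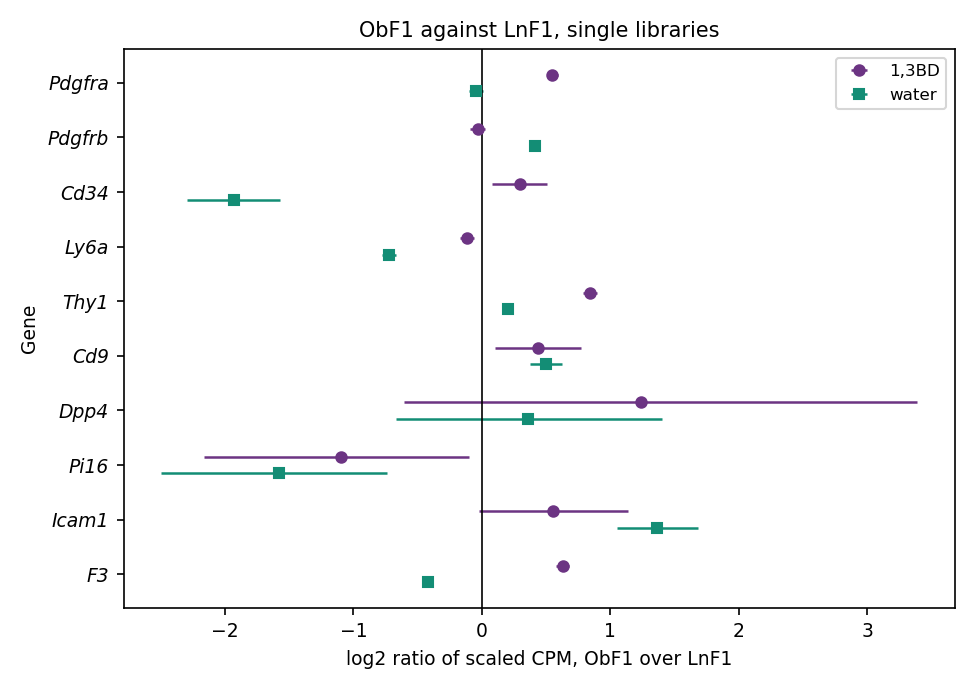
The log2 ratio of scaled CPM in ObF1 over LnF1 for each marker with 1,3BD (circles) and with water (squares), with bars for the 95% counting interval (exact conditional binomial). Cd34 with water lies furthest below 0 at 0.263 times LnF1, and Cd9 has nearly the same value in both drinks.

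Beyond the markers, 1 list held genes past the threshold for parents. Of the committed preadipocyte genes, Cxcl14 was higher in ObF1 (log2 difference 2.27, limma adjusted p = 0.0241) and Cebpa, a transcription factor gene of adipocyte formation, was lower (-1.39, limma adjusted p = 0.0283). Of 68 tested genes in the other lists, 0 passed by limma. Vcam1, which is in the committed preadipocyte list too, is not among the 68. An unadjusted p under 0.05 in limma was found for 18 of them, a larger share than the 10.8% of all tested genes. The lists were chosen with earlier results of these data known, so that larger share is no separate support for a parental difference.

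The likeness of patterns was measured as the root mean square difference of centred log2 CPM over the 4 libraries, as a description of 4 points. Among the markers, Thy1 and Dpp4 (0.14) and Thy1 and F3 (0.23) were nearest each other, and Cd34 and Cd9 (2.10) were farthest apart. Dpp4 had 4 to 20 reads and Pi16 13 to 49 reads, so counting error alone can move their distances. Over 9925 other genes at a mean of at least 5 CPM, Pdgfrb was nearest to the talin gene Tln1 (0.0383) and Fam131b (0.0476), Cd9 to the integrin gene Itga11 (0.0728) and Pea15a (0.108), and Thy1 to the latent TGF-beta binding protein gene Ltbp2 (0.0428) and Bmpr1b (0.109). Itga11 had 105 CPM in ObF1 1,3BD against 856 CPM in ObF1 water, and 79.5 CPM in LnF1 1,3BD against 664 CPM in LnF1 water. Icam1 was nearest to Arhgap18 (0.0772) and Ntn4 (0.119), F3 to Il1rl1 (0.0956) and C1ra (0.118), Pi16 to Prrx2 (0.118) and Slc27a6 (0.142), and Dpp4 to Mtss1 (0.0833) and Ndrg1 (0.0979). Pdgfra was nearest to Akr1e1 (0.0207) and Clec16a (0.0256), and Ly6a to Mpp1 (0.0306) and Tmem120a (0.0421). Cd34 had the least close neighbours, Gas1 (0.236) and Sulf2 (0.239), and both were, like it, lowest in ObF1 water, Gas1 at 33.1 CPM there and 165 to 173 CPM in the other libraries.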

How the data were processed

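RNA of 4 libraries (1 per combination of parents and drink, each a pool of 3 mice) was read from 1 table that the submitters deposited. Its columns name the parents, and 2 of them add BD. The columns without BD were taken as the water libraries, and every drink difference rests on that match. Per the submitters' processing notes the build was mm10 and edgeR and DESeq2 were used, with no role given. Aligner, counter, annotation and use of strand are each not given in sources used here, so antisense overlap could not be separated, and genes that overlap a marker had at most 0.739 CPM. The deposited values are a scaled signal: 100% were whole multiples of the smallest value in their column (relative tolerance 1e-06), so reads were recovered, and the values are called CPM.

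The test took the 12838 genes that reached 1 CPM in 2 or more libraries and ran limma 3.58.1 on log2(CPM + 0.0796), worth 2 reads, with trend and robust moderation, 1 residual degree of freedom and Benjamini-Hochberg adjustment at 0.05. For low genes the added constant shrinks fold changes. With no second pool in any combination, the error in the p-values is how far a difference varies between the 2 arms of the other factor, not a spread between replicate pools. edgeR 4.0.16 and DESeq2 1.42.0 on the recovered reads, edgeR calling 2649 genes higher and 2884 lower for drink and 19 and 13 for parents, other pseudocounts, filters and scalings, and fits without 1 library were the alternatives. Exact counting intervals (95%) cover counting error only. Lengths and coordinates are from GENCODE M21 (GRCm38). The main limma fit, but not the alternatives, was tested on simulated counts. Their spread was taken from these libraries, and no difference between arms was put in.

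The markers and all lists were chosen with earlier results of these data known. Named genes are the 10 markers, up to 4 passing genes per direction and list by size for drink, every passing gene for parents, and the 2 nearest genes per marker. Listed genes beyond these, such as Vcam1, Pdgfc, Prrx1, F10 and the untested Pdgfb, were chosen after their values were seen.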

Additional observations from a re-analysis of the deposited data

Results flagged for a closer look

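Cd34, F3 and Ly6a went opposite ways in 2 arms of the design, each with counting intervals that do not include 1, and with 1 library per arm none of these disparities was tested. Over 12838 genes, 18.0% had opposite drink differences in the parental groups and 41.2% had opposite parental differences in the 2 drinks. Cd34 was higher in ObF1 than in LnF1 with 1,3BD (14.6 against 11.9 CPM) and lower with water (3.56 against 13.5 CPM), a gap of 2.19 on the log2 scale between the 2 differences. A larger gap in size was seen in 131 of the 12838 tested genes. F3 was higher in ObF1 than in LnF1 with 1,3BD (266 against 172 CPM) and lower with water (621 against 832 CPM), a gap of 1.05, which 1246 genes exceeded in size. For Ly6a the drink difference was positive in ObF1 (202 CPM with 1,3BD against 182 CPM with water) and negative in LnF1 (219 CPM with 1,3BD against 300.5 CPM with water), a gap of 0.60, which 3605 genes exceeded.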

How the results depend on the processing

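No paired analysis was possible because each group had 1 library, with no replicate numbers to match. The fit itself has the parents as a term and so sets the drinks side by side within parental groups. Without that term it called 1866 genes higher and 2522 lower for drink. The 5 lower markers passed in every setting with all 4 libraries, with log2 differences of -2.93 to -2.68 for Cd9, -2.0 to -1.75 for Pdgfrb, -1.75 to -1.5 for F3, -1.73 to -1.48 for Thy1 and -2.03 to -1.65 for Icam1. Without 1 library, 4 to 5 markers were lower and 0 to 1 higher, the exceptions being Icam1, lost without LnF1 1,3BD or ObF1 water, and a call of Cd34 without LnF1 water (1.86) and of Pdgfra without LnF1 1,3BD (0.78). Without a filter, 2 markers were called higher (Pdgfra, limma adjusted p = 0.0481, and Cd34, limma adjusted p = 0.0125). With library totals in place of factors, which shifted the median gene by 0.25 for drink and -0.11 for parents, 1 was (Pdgfra, 0.76, limma adjusted p = 0.0152), and Ly6a turned to 0.10. That scaling changed the split over all genes for drink from 2466 higher and 3189 lower to 3687 higher and 2270 lower. Without 1 library the drink counts were 769 to 1845 higher and 1076 to 2729 lower. Without 1 library, Ly6a ran from -0.51 to 0.21 and Cd34 from -0.039 to 1.86.

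For parents, 0 markers passed in any setting. Over all genes, 25 were higher and 13 lower, against 69 and 48 with DESeq2, 11 and 5 with a pseudocount of 0.5 CPM, 8 and 5 with 1 CPM, 196 and 156 without a filter, 10 and 5 at a mean of at least 5 CPM, 16 higher with library totals, and 0 and 0 without the drink covariate or without any 1 library (39 genes at an unadjusted p under 0.05 in limma without the covariate). F3 turned to -0.00380 with library totals. Fits without 1 library also lose the drink covariate, and markers turned sign there, over ranges of -0.92 to 1.30 for Pdgfrb, -0.50 to 1.55 for Thy1, -1.02 to 1.95 for Cd9, -1.03 to 1.24 for F3, -1.81 to 0.20 for Cd34, -0.28 to 2.16 for Icam1 and -0.15 to 0.66 for Pdgfra. The cause of these shifts was not tested. Depth limits Dpp4 and Pi16, at 4 to 49 reads: without a filter, Dpp4 had a log2 difference for drink of -1.48 (limma adjusted p = 0.0523).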
